A study of Mus musculus with 4 samples.

Results

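The gene group described here is the class I antigen presentation pathway: the light chain B2m, the heavy chains H2-K1, H2-D1 and H2-T23, the peptide transporter genes Tap1 and Tap2, its partner Tapbp, the immunoproteasome genes Psmb8 and Psmb9, and the transactivator gene Nlrc5. The group holds 10 of the 24411 symbols in the deposited tables, listed by symbol with earlier results of these data known, and all 10 reached a TPM of 1 in at least 2 of the 4 libraries, the minimum for testing. TPM is a transcript's share of a library, corrected for its length and scaled to the same total in every library. The libraries came from 4T1, a mammary carcinoma line of BALB/c mouse origin grown in culture. The study compared 2 libraries labelled control with 2 labelled CD95ko, in which CD95 (Fas), the death receptor of the TNF receptor family, was targeted by a pair of guide RNAs in exon 9. The CD95ko lines were single-cell clones of cells that carry lentiCas9-Blast and were selected with blasticidin, so each CD95ko library is 1 clone. The protocols name 2 control sources, unmodified cells and the Cas9 line, but a title such as control 1 does not name its source, and each control is therefore given separately. The name of the deposited table for control 2 points to the Cas9 line. No label gives a separate culture for each library, so p-values measure the spread between these 4 libraries only.

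Fas TPM was 49.4 and 39.2 in controls 1 and 2, and 15.8 and 49.5 in the libraries labelled CD95ko 1 and CD95ko 2. The value in CD95ko 2 was not below the controls, and 1 value per gene cannot show a loss limited to exon 9, so CD95ko 1 and CD95ko 2 are used below as labels of libraries. The number of genes above 0 ran from 11193 to 12010 per library. Control 2 stood apart in scale: the median tested gene was 0.35 lower there than in control 1 on the log2(TPM + 1) scale, and its 100 most abundant genes took 40.2% of the TPM against 34.1% to 36.2% elsewhere. The deposited tables hold no read counts, so the depth behind each TPM is unknown. Epithelial markers were present, with 9 of 10 above 0 in at least 1 library and Krt5 at 0 in all 4. Their summed TPM was 4382 in control 1, 4024 in control 2, 6608 in CD95ko 1 and 10216 in CD95ko 2, higher in both CD95ko libraries. Krt18 was the largest part of the sum, at 1707, 1753, 2412 and 5160 in the same order. Of the 9 tested markers, 6 were higher in both CD95ko libraries than in both controls, where 29.2% of tested genes were. Krt14, Cldn7 and Esrp1 were not, and Cldn7 was lowest in CD95ko 2. The relation of the sum to the values below was not tested. Of 13 leukocyte markers, 11 including Ptprc were at 0 in all 4 libraries. The remaining pair, Cd68 and Csf1r (markers of macrophages), brought the summed leukocyte TPM to 45.8, 42, 40 and 151 in control 1, control 2, CD95ko 1 and CD95ko 2.

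Class I molecules show peptides from the cell's own proteins to CD8+ T cells. The proteasome cuts proteins into peptides, the TAP transporter carries them into the endoplasmic reticulum, and tapasin (Tapbp) holds empty heavy chains paired with beta-2-microglobulin close to TAP until a peptide binds. Interferon gamma raises most of these genes, in part through IRF1, while NLRC5 acts on an enhanceosome assembled on a promoter module, the SXY module, whose elements include a cAMP response element and an inverted CCAAT box. Tumour cells often vary in how much of this pathway they express.

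The promoters show how much of this control region the members have in common. RefSeq windows on the GRCm38.p6 assembly, from 250 bases before to 50 after the start of transcription, were matched for 8 members, all but Tap2 and Nlrc5. Both strands were searched. The stretches below run 5′ to 3′ along the gene and end before the start that defines its window. For H2-K1 that start and the printed stretch lie inside the annotated gene span, chr17:33996012-34000619. H2-K1, H2-D1 and B2m are shown because each carries several of these elements close together, and H2-T23 for its response element core and CCAAT box. Capitals mark matches to a GAAA repeat with 2 bases between (an interferon response element core), AAGTGAAAC, TGACG (the cAMP response element core) and ATTGG (the inverted CCAAT box), or to their reverse complements. H2-K1 lies at chr17:34000349-34000448 on the minus strand, H2-D1 at chr17:35262933-35263055 on the plus strand, B2m at chr2:122147538-122147648 on the plus strand and H2-T23 at chr17:36032739-36032835 on the minus strand.
H2-K1: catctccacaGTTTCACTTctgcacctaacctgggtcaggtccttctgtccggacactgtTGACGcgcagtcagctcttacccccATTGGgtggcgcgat
H2-D1: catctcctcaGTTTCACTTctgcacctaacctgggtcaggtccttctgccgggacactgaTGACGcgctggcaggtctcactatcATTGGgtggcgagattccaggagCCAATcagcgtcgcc
B2m: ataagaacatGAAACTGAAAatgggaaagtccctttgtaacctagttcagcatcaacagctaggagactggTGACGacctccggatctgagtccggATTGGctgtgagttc
H2-T23: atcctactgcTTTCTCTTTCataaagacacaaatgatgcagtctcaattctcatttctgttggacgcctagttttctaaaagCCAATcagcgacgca

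H2-K1, H2-D1 and B2m each hold TGACG followed by ATTGG with starts 25 bases apart on 1 strand. This arrangement was found in 0.0944% of 32851 promoter windows. Each member is represented by its first listed window, while the shares of windows here cover every listed window. The first 100 bases of the H2-K1 and H2-D1 stretches, set side by side without gaps, have 88 identical positions. Both also hold AAGTGAAAC, present in 0.399% of windows. This element and the spacing were searched after the sequences had been read. The response element core was present in B2m and H2-T23, 2 of 8 members, against 3.44% of windows. TGACG occurred in 5 of 8 members (B2m, H2-K1, H2-D1, Psmb9 and Tap1) against 20.8% of windows, and ATTGG in 7 of 8, all but Psmb8, against 37.4%. TTCNNNGAA, the gamma-activated sequence core, occurred in Psmb8 alone among the 8 and in 8.3% of windows. The NF-kappaB-like pattern of GGG and CC with 5 bases between occurred in 5 of 8 and in 50.8% of windows. The windows of Psmb9 and Tap1 overlap, so these 2 members are not independent in the counts. Their cAMP response element core is 1 shared site read from opposite strands, and so is their CCAAT box. Their NF-kappaB-like matches are shared in the same way. The counts of members with these 3 patterns therefore include the same sites for both genes. A match is a description of these letters, not a bound site.

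Tap1 and Psmb9 are transcribed in opposite directions from neighbouring starts, so that 1 short segment is the upstream region of both genes. Psmb9 lies at chr17:34182030-34187330 and Tap1 at chr17:34187556-34197225, with Psmb8 (chr17:34198195-34201454) and Tap2 (chr17:34204479-34216321) following in the class II part of the major histocompatibility complex. The segment between the 2 annotated starts, chr17:34187331-34187555, is shown on the plus strand, in the direction of Tap1, because the data below compare both genes.
Tap1 and Psmb9: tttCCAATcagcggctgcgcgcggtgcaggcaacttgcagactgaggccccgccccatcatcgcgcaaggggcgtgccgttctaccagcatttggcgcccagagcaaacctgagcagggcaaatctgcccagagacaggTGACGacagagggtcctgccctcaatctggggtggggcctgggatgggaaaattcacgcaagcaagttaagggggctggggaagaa
The segment carries CCAAT close to the Psmb9 start and TGACG in its Tap1-side portion. Some transcript models of the pair overlap by 212 exonic bases, 3.87% of the Tap1 exons and 5.79% of those of Psmb9. Whether reads were assigned by strand is not given in the sources used here.

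No member passed the test between the 2 CD95ko and the 2 control libraries. With limma on log2(TPM + 1) and Benjamini-Hochberg adjustment over 11167 tested genes, 6 genes, 0.0537% of those tested, had an adjusted p under 0.05, and 0 of the 10 members did. At an unadjusted limma p under 0.05, 1 member (B2m) was lower in CD95ko, against 5.68% of tested genes, and 0 were higher, against 9.25%. The median log2 difference of the members was 0.13, the same as the 0.13 of all tested genes. B2m was also the 1 member whose libraries did not overlap between the groups with CD95ko lower, against 18.3% of tested genes, and 0 members did not overlap with CD95ko higher, against 29.2%. With 2 libraries in each group, the smallest two-sided exact permutation p for a single gene is 0.33, and the fit has 2 residual degrees of freedom. The pathway did differ widely among libraries, but mainly within each label. Control 2 was below control 1 for all 10 members, where 75.9% of tested genes were lower. CD95ko 2 was above CD95ko 1 for 9, where 44.1% of tested genes were higher. Summed over the 10 members, the TPM was 2597 in control 1, 1369 in control 2, 1337 in CD95ko 1 and 3016 in CD95ko 2.

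**Figure D1:**
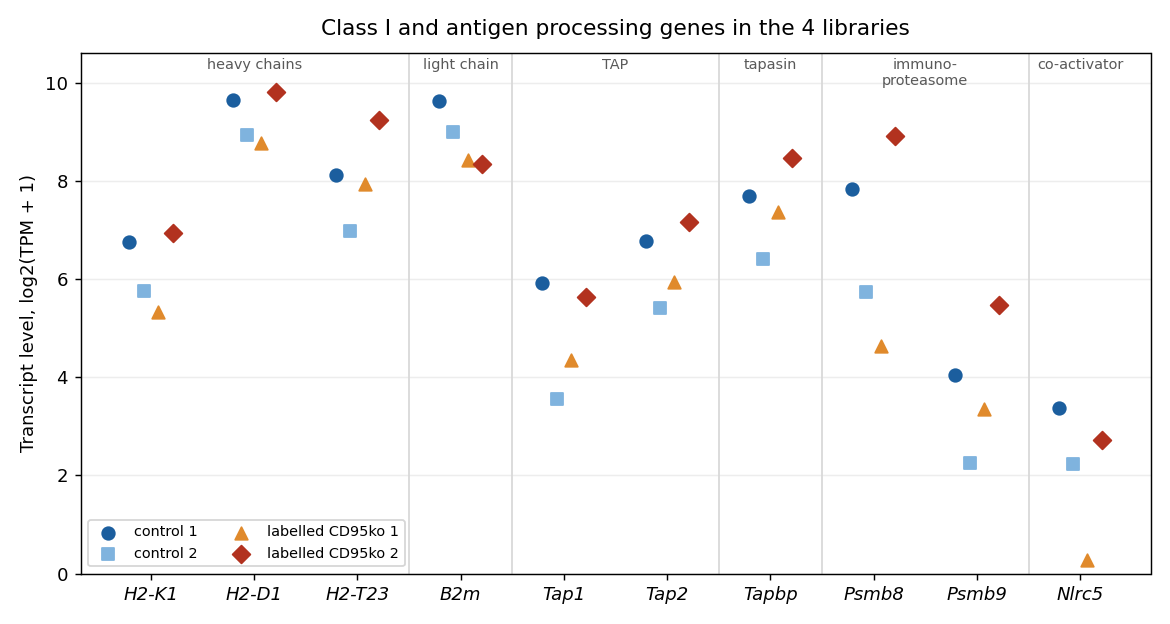
Level of each member (horizontal axis, ordered by role) as log2(TPM + 1) on the vertical axis, 1 symbol per library and gene. Control 2 (light blue squares) lies below control 1 (dark blue circles) for all 10 genes, and CD95ko 2 (red diamonds) lies above CD95ko 1 (orange triangles) for all but B2m.

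B2m encodes beta-2-microglobulin, the light chain shared by all class I molecules. Its TPM was 787 in control 1, 507 in control 2, 342 in CD95ko 1 and 324 in CD95ko 2. Both controls were above both CD95ko libraries, and the CD95ko values lay close together. The control mean was 647 ± 198 and the CD95ko mean 333 ± 12.6 (SD, n = 2 each). The log2 difference was -0.92 with a standard error of 0.31 (limma adjusted p = 0.236), so it did not pass. In every library B2m ranked above at least 96.0% of the tested genes.

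H2-K1 and H2-D1 encode classical heavy chains, which present peptide to CD8+ T cells. H2-K1 had a TPM of 107 in control 1, 53.4 in control 2, 39.3 in CD95ko 1 and 122 in CD95ko 2. H2-D1 had 801, 486, 436 and 891 in the same order. For both genes control 1 and CD95ko 2 were high, control 2 and CD95ko 1 were low, and the groups overlapped completely. The log2 difference between groups was -0.12 ± 0.56 (SE, limma adjusted p = 0.941) for H2-K1 and 0.00 ± 0.40 (SE, adjusted p = 1) for H2-D1. The TPM of H2-D1 exceeded that of H2-K1 in all 4 libraries, but the reference sequence is from C57BL/6, whose class I alleles differ from those of BALB/c, and how that moved either value was not tested. Of the 25-base stretches in H2-K1 transcripts, 32.5% occur in another gene, as do 35.4% of those of H2-D1, so the split of reads among heavy chains is uncertain.

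H2-T23 encodes Qa-1, a non-classical heavy chain recognised by the CD94/NKG2A receptor of natural killer cells. Its TPM was 278 in control 1, 126 in control 2, 243 in CD95ko 1 and 603 in CD95ko 2. CD95ko 2 stood above both controls and CD95ko 1 fell between them. The log2 difference was 1.03 ± 0.50 (SE, limma adjusted p = 0.376). Here 56.2% of the 25-base stretches are shared with other genes, 31.2% with the pseudogene H2-T-ps. With CD95ko 1 left out, which leaves 1 CD95ko library, the difference was 1.68. Over the alternatives that keep all 4 libraries, the adjusted limma p ran from 0.378 to 0.504.

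Heavy and light chain transcripts stood in a different proportion in CD95ko 2. The TPM of H2-K1, H2-D1 and H2-L, a further classical heavy chain gene of BALB/c, was summed. The sum was 1026 in control 1, 604 in control 2, 522 in CD95ko 1 and 1234 in CD95ko 2. Divided by B2m this gave 1.3, 1.19, 1.53 and 3.8. CD95ko 2 thus paired the highest heavy chain sum with the lowest B2m level, while the other 3 libraries had similar ratios. This ratio was chosen after the values had been seen and was not tested. The stretches that H2-L shares with other genes were not computed, so how reads were split between it and other heavy chains is unknown.

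Tap1 and Tap2 encode both chains of the peptide transporter. Tap1 had a TPM of 59.3 in control 1, 10.7 in control 2, 19.4 in CD95ko 1 and 48.3 in CD95ko 2. Tap2 had 109, 41.6, 60.5 and 143. For both genes control 2 was lowest and CD95ko 1 next, and both CD95ko values of Tap1 lay between its controls. The log2 difference was 0.26 ± 0.75 (SE, limma adjusted p = 0.905) for Tap1 and 0.46 ± 0.54 (SE, adjusted p = 0.73) for Tap2. Although the genes code for partners in 1 complex, their TPM ratio, Tap1 to Tap2, was 0.545 in control 1 and 0.257, 0.32 and 0.339 in control 2, CD95ko 1 and CD95ko 2. The ratio was highest in control 1.

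Tapbp encodes tapasin, which bridges TAP and the heavy chain. Its TPM was 204 in control 1, 84.5 in control 2, 164 in CD95ko 1 and 355 in CD95ko 2. The order of the libraries was that of H2-T23. The log2 difference was 0.87 ± 0.49 (SE, limma adjusted p = 0.442). With CD95ko 1 left out, which leaves 1 CD95ko library, the difference was 1.42. Over the alternatives that keep all 4 libraries, the adjusted limma p ran from 0.437 to 0.564. An antisense gene, Gm19412, covers 24.9% of the Tapbp exons.

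Psmb8 encodes the inducible catalytic subunit that takes the place of Psmb5 when an immunoproteasome assembles. Its TPM was 227 in control 1, 52.3 in control 2, 23.8 in CD95ko 1 and 481 in CD95ko 2. The CD95ko libraries were the lowest and the highest of the 4, 20.2-fold apart, with both controls between them. The control mean was 140 ± 123 and the CD95ko mean 252 ± 323 (SD, n = 2 each), and the log2 difference was -0.01 ± 1.18 (SE, limma adjusted p = 0.998). With CD95ko 1 left out, the difference was 2.13, and with CD95ko 2 left out it was -2.15. Each of these fits leaves 1 CD95ko library. Over the alternatives that keep all 4 libraries, the adjusted limma p ran from 0.969 to 0.998. The log2 range of Psmb8 over the 4 libraries, 4.28, was larger than that of 98.7% of tested genes. None of its 25-base stretches occurs in another gene (0%), and an antisense gene, Gm20496, covers 14.7% of its exons.

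Psmb9 encodes the inducible subunit that takes the place of Psmb6. Its TPM was 15.6 in control 1, 3.80 in control 2, 9.18 in CD95ko 1 and 43.2 in CD95ko 2. CD95ko 2 was highest and control 2 lowest, 11.4-fold apart, and CD95ko 1 lay between the controls. The log2 difference was 1.25 ± 0.81 (SE, limma adjusted p = 0.503). Psmb8 and Psmb9 therefore differed in which library was lowest. Psmb9 and Tap1, which share the segment printed above, differed in which was highest: Tap1 was highest in control 1 and Psmb9 in CD95ko 2.

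The constitutive subunits were steady beside them. Psmb5 had a TPM of 333 in control 1, 387 in control 2, 378 in CD95ko 1 and 397 in CD95ko 2, a 1.19-fold span. The ratio of Psmb8 to Psmb5 was 0.681, 0.135, 0.0631 and 1.21 in the same order, a 19.2-fold span. The inducible transcript thus exceeded the constitutive one in CD95ko 2 alone. The ratio of Psmb9 to Psmb6 was 0.0386, 0.00871, 0.0171 and 0.0821, a 9.43-fold span over a Psmb6 level that varied 1.33-fold. The third inducible subunit gene, Psmb10, is no member, and its ratio to Psmb7 was 0.331, 0.159, 0.334 and 0.938. All 3 ratios were highest in CD95ko 2, and the lowest was in CD95ko 1 for Psmb8 and in control 2 for Psmb9 and Psmb10. Over 14 constitutive proteasome genes the highest library exceeded the lowest by 1.19-fold to 2.26-fold (median 1.38), against 2.04-fold to 42.6-fold (median 4.5) over the members. The 42.6-fold span was that of Nlrc5, with a TPM of 0.22 in CD95ko 1, and the next largest was 20.2-fold for Psmb8.

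**Figure D2:**
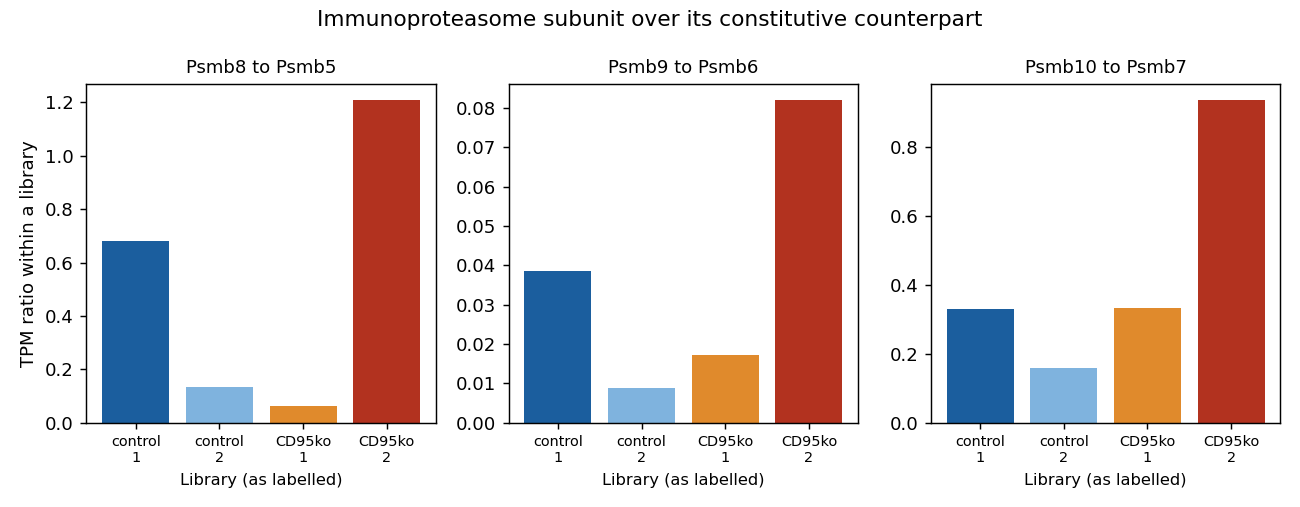
TPM ratio of each inducible proteasome subunit to the constitutive subunit it replaces, as bars from 0, 1 bar per library and 1 panel per pair, each with its own vertical scale. The ratio of Psmb8 to Psmb5 goes from 0.0631 in CD95ko 1 to 1.21 in CD95ko 2, and all 3 ratios are highest in CD95ko 2.

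Nlrc5, the class I transactivator gene, was the least abundant member. Its TPM was 9.37 in control 1, 3.67 in control 2, 0.22 in CD95ko 1 and 5.56 in CD95ko 2. CD95ko 1 was far below the other 3 libraries, and CD95ko 2 lay between the controls. The log2 difference was -1.30 ± 0.87 (SE, limma adjusted p = 0.516), and without CD95ko 1 it was -0.09. Because of the pseudocount this scale understates the contrast of a level as low as 0.22. Nlrc5 lies at chr8:94434335-94527272 on GRCm38.p6, away from the other members. The library with the lowest Nlrc5 was also lowest for H2-K1, H2-D1 and Psmb8, but not for Tap1, Tap2, Tapbp, Psmb9 or H2-T23, which were lowest in control 2.

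The order of libraries split the members into groups. CD95ko 2 was highest for 7 members, and control 1 for B2m, Tap1 and Nlrc5. Control 2 was lowest for 5 members, CD95ko 1 for 4 (H2-K1, H2-D1, Psmb8 and Nlrc5) and CD95ko 2 for B2m. The spread among the 4 libraries exceeded that of most tested genes for 9 members, with percentiles from 58.5 for B2m to 98.7 for Psmb8, and H2-D1 stood at 44.0.

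Between the 2 controls, all 10 members were lower in control 2. The TPM in control 2 was 18% of that in control 1 for Tap1, 23.1% for Psmb8, 24.4% for Psmb9, 38.2% for Tap2, 39.2% for Nlrc5, 41.3% for Tapbp and 45.2% for H2-T23. The smaller contrasts were those of the classical heavy chains and the light chain, at 49.8% for H2-K1, 60.7% for H2-D1 and 64.5% for B2m. The direction alone says little, since 75.9% of tested genes were lower in control 2. On the log2(TPM + 1) scale 7 of 10 members were over 2-fold lower there, against 12.6% of tested genes, and the median was -1.21 against -0.35 for all tested genes. After quantile normalization, which sets that overall shift to 0, all 10 were still lower, 6 of them over 2-fold, with a median of -1.05. With 1 library on each side this contrast has no replicate check.

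Between the 2 CD95ko libraries, 9 members were higher in CD95ko 2, against 44.1% of tested genes, and the same 9 were over 2-fold higher, against 9.9%. The TPM ratio of CD95ko 2 to CD95ko 1 was 2.04 for H2-D1, 2.16 for Tapbp, 2.36 for Tap2, 2.48 for H2-T23, 2.5 for Tap1, 3.1 for H2-K1, 4.7 for Psmb9, 20.2 for Psmb8 and 25.3 for Nlrc5. B2m, at 0.948, was the exception, and the ratio of Nlrc5 rests on a TPM of 0.22 in CD95ko 1. The median log2 difference was 1.29 for the members and -0.10 for all tested genes. Quantile normalization left these 9 over 2-fold higher and B2m lower. Being over 2-fold lower in control 2 than control 1 and also over 2-fold higher in CD95ko 2 than CD95ko 1 applied to 7 of 10 members and to 2.75% of tested genes. The 3 others were B2m, H2-K1 and H2-D1.

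**Figure D3:**
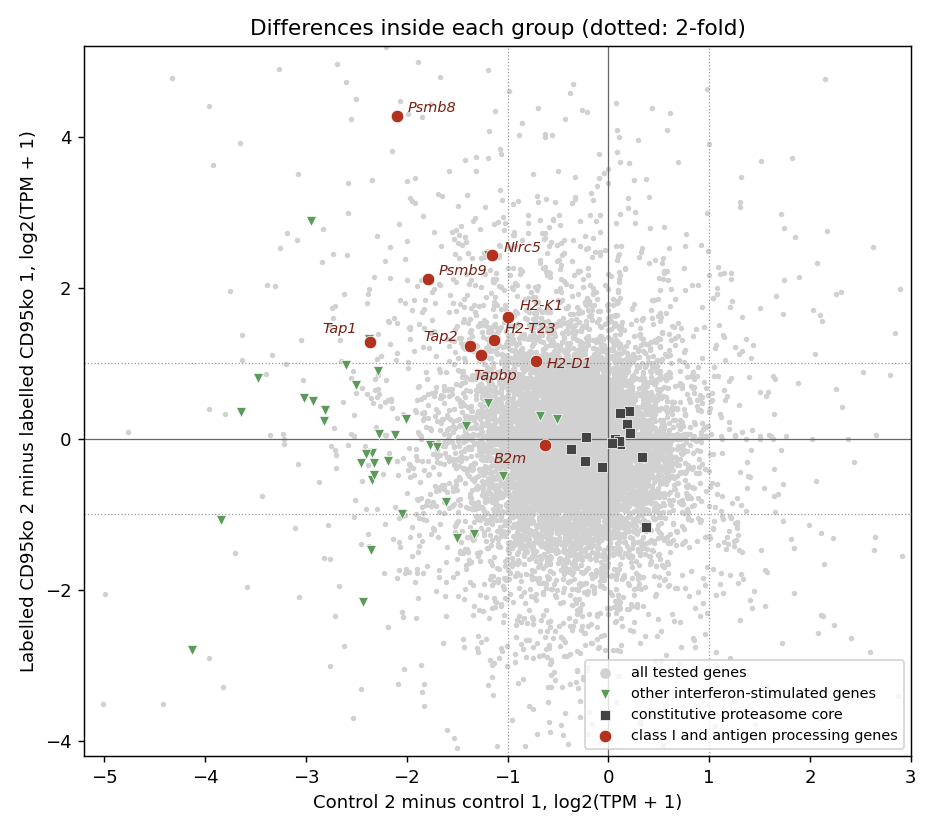
Difference between the CD95ko libraries (CD95ko 2 minus CD95ko 1) against the difference between the controls (control 2 minus control 1), both in log2(TPM + 1), 1 point per gene, with members in red, other interferon-stimulated genes in green, constitutive proteasome genes in dark grey, all tested genes in light grey, dotted lines at 2-fold and 44 tested genes outside the axes. All 10 members lie left of 0 and 9 lie above 0, while B2m lies at -0.08 on the vertical axis.

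Which control is used set what each CD95ko library looked like. Against control 1, CD95ko 1 was over 2-fold lower for 5 members (B2m, H2-K1, Tap1, Psmb8 and Nlrc5), against 9.01% of tested genes, with a member median of -1.04. Against control 2 the member median of CD95ko 1 was 0.19, below the 0.36 of all tested genes. Against control 2, CD95ko 2 was over 2-fold higher for 7 members, all but B2m, H2-D1 and Nlrc5, where 24.3% of tested genes were. Against control 1 it was over 2-fold higher for 3 members (H2-T23, Psmb8 and Psmb9; 13% of tested genes) and over 2-fold lower for 1 (B2m; 17.5% of tested genes). These contrasts share libraries and are not independent of each other. Leaving out a library turned the member median of CD95ko against control to -0.49 without control 2 and -0.45 without CD95ko 2, and raised it to 1.09 without control 1 and 0.98 without CD95ko 1. The count of all genes called was 1034 without CD95ko 1, 194 without CD95ko 2 and 0 without either control.

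Other genes of the pathway were followed as lists, and 0 genes in any of these lists had an adjusted limma p under 0.05. At an unadjusted limma p under 0.05, each of these pathway lists had 0 to 3 genes lower and 0 or 1 higher in CD95ko. Of the 9 tested epithelial markers, 4 were higher. Among all tested genes, 5.68% were lower and 9.25% higher at that limma threshold. The background for the 2-fold counts of the lists is also that of all tested genes. Between the controls 12.6% of tested genes were over 2-fold lower and 1.84% over 2-fold higher in control 2, with a median of -0.35. Between the CD95ko libraries 9.9% were over 2-fold higher and 13.4% over 2-fold lower in CD95ko 2, with a median of -0.10. Of the members, 0 were over 2-fold higher in control 2 than in control 1 and 0 over 2-fold lower in CD95ko 2 than in CD95ko 1. Of 19 other class I heavy chain genes, 11 were tested. Between the controls 9 of the 11 were lower in control 2, 5 over 2-fold, and 2 (H2-Q6 and Hfe, an iron regulator gene) were over 2-fold higher, with a median of -0.97. Between the CD95ko libraries 9 were higher in CD95ko 2, 7 over 2-fold, with a median of 1.99. H2-L had a TPM of 118 in control 1, 65.0 in control 2, 46.2 in CD95ko 1 and 220 in CD95ko 2, the order of H2-K1. H2-T22 was listed at 0 in control 2 and CD95ko 1 and stood at 19.1 in control 1 and 26.4 in CD95ko 2. H2-Q6 went from 0.98 in control 1 to 13.7, 12.9 and 54.2 in the others, whereas H2-Q7 had 26.2 in control 1, 0 in control 2, 6.94 in CD95ko 1 and 7.46 in CD95ko 2. Mr1, which presents vitamin B metabolites to MAIT cells, had 6.75, 1.59, 0 and 10.7. More than 50% of the 25-base stretches of H2-Q6 (58.6%) and H2-Q7 (54.2%) occur in other genes, so these single values are uncertain.

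Chaperones and trimming enzymes of the endoplasmic reticulum lay closer together within each label, with 1 exception. Among 10 such genes, 0 were over 2-fold apart between the controls (median -0.33), and between the CD95ko libraries 1 was over 2-fold lower in CD95ko 2 and 0 over 2-fold higher (median 0.26). That gene was Hspa5, which encodes the chaperone BiP, with a TPM of 2018 in control 1, 1914 in control 2, 1050 in CD95ko 1 and 415 in CD95ko 2. Its log2 difference was -1.57 ± 0.41 (SE, limma adjusted p = 0.161). Hsp90b1, which encodes the chaperone GRP94, had 359, 278, 320 and 601. It was over 2-fold higher in CD95ko 2 than in control 2, as were 24.3% of tested genes. Erap1, which trims peptides in the endoplasmic reticulum, had 13.2, 7.42, 14 and 14.7, and Canx, which encodes calnexin, ran from 146 in control 2 to 254 in CD95ko 2.

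Of 7 other immunoproteasome and proteasome activator genes, 3 were over 2-fold lower in control 2 than in control 1 (median -0.69), and 3 (Psmb10, Psme1 and Psme2) over 2-fold higher in CD95ko 2 than in CD95ko 1 (median -0.11). Psme1, which encodes a chain of the PA28 activator, had a TPM of 169 in control 1, 78.4 in control 2, 251 in CD95ko 1 and 635 in CD95ko 2. Both CD95ko libraries were above both controls for this gene. Its log2 difference was 1.78 ± 0.50 (SE, limma adjusted p = 0.177). Psme3, which encodes the nuclear activator PA28 gamma, had 171, 106, 92.6 and 53.5, the lowest value being in CD95ko 2. Among the 14 constitutive proteasome genes, 0 were over 2-fold apart between the controls and 1 (Psmb2) was over 2-fold lower in CD95ko 2 than in CD95ko 1. Of 7 cytosolic peptidase genes, 0 were over 2-fold apart between the controls and 1 (Lap3, a leucine aminopeptidase gene) was over 2-fold lower in CD95ko 2 than in CD95ko 1, at 78.8 against 176.

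The transcription factors known to act on class I genes did not follow 1 pattern. Of 19 regulators tested, 6 were over 2-fold lower in control 2 than in control 1 and 0 over 2-fold higher (median -0.51). Between the CD95ko libraries 1 (Irf1) was over 2-fold higher and 1 over 2-fold lower in CD95ko 2 (median 0.17). Irf1 had a TPM of 259 in control 1, 84.8 in control 2, 101 in CD95ko 1 and 253 in CD95ko 2, high and low in the same libraries as H2-K1 and H2-D1. Rela, an NF-kappaB subunit gene, had 159, 147, 85.9 and 52.9 (log2 difference -1.17 ± 0.35 SE, limma adjusted p = 0.197). Stat2, which acts downstream of type I interferon, had 33.0, 8.82, 12.4 and 19.3.

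For interferon-stimulated genes outside the class I pathway, the contrast of each CD95ko library with control depended on the control. Between the controls all 37 were lower in control 2, 35 of them over 2-fold, with a median of -2.33. Of all tested genes 75.9% were lower there and 12.6% over 2-fold lower. Against control 1, CD95ko 1 was lower for all 37, where 5515 of 11167 tested genes were lower. Of the 37, 25 were over 2-fold lower, where 9.01% of tested genes were. The median was -1.46, against -1.04 for the members and 0.01 for all tested genes. Against control 2, CD95ko 1 was higher for 32 of 37, where 7621 of 11167 tested genes were higher. That median was 0.72, against 0.19 for the members and 0.36 for all tested genes. Between the CD95ko libraries 18 were lower and 19 higher in CD95ko 2, 6 over 2-fold lower and 3 over 2-fold higher, with a median of 0.04 against 1.29 for the members. Against control 1, CD95ko 2 was lower for 33 of 37, where 6039 of 11167 tested genes were lower. Of the 37, 23 were over 2-fold lower, where 17.5% of tested genes were. The median was -1.29 against 0.29 for the members and -0.09 for all tested genes. Against control 2, CD95ko 2 was higher for 28 of 37, where 6717 of 11167 tested genes were higher. Of the 37, 15 were over 2-fold higher, where 24.3% of tested genes were. In that contrast 3 of 37 and 0 members were over 2-fold lower, where 12.3% of tested genes were, and the median was 0.70 against 1.91 for the members and 0.26 for all tested genes. Isg15, a ubiquitin-like interferon target, had a TPM of 600 in control 1, 212 in control 2, 156 in CD95ko 1 and 62.3 in CD95ko 2. Ifit3, which encodes an antiviral protein of the IFIT family, had 58.2, 9.97, 11.1 and 1.70, and its close relative Ifit3b had 30.8, 0.82, 5.96 and 0. These 3 were lowest in CD95ko 2. Ifi44, another interferon-induced gene, had 45.4, 3.17, 2.18 and 4.56, lowest in CD95ko 1. The 2 exceptions, over 2-fold higher in CD95ko 2 than in control 1, were Zbp1 (23.8 in control 1, 61.4 in CD95ko 2) and Gbp4 (13.5 and 37.1). No test of the difference between the 2 lists was made.

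**Figure D4:**
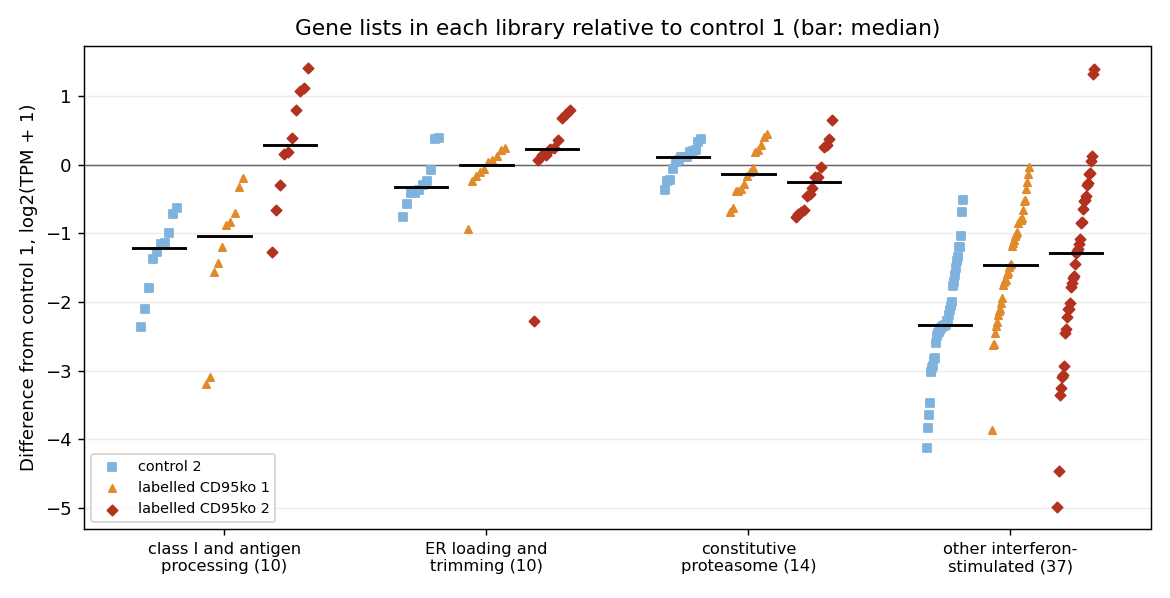
Differences from control 1 in log2(TPM + 1) for the members and for gene lists of the pathway in the other 3 libraries, 1 point per gene with the list median. In control 2 the members (median -1.21) and the interferon-stimulated genes (-2.33) are both low, as they are in CD95ko 1 (-1.04 and -1.46). In CD95ko 2 the members have a median of 0.29 and the interferon-stimulated genes -1.29.

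Class II genes, controlled by the related transactivator Ciita, were largely silent. Ciita was listed at 0 in all 4 libraries, as were 5 of 10 class II genes, and 2 of the 10 were tested. Cd74, the invariant chain gene, had a TPM of 89.0 in control 1, 33.7 in control 2, 12.6 in CD95ko 1 and 35.2 in CD95ko 2. The interferon gamma receptor pathway held 8 tested genes. Of these, 3 were over 2-fold lower in control 2 than in control 1 (median -0.57), and between the CD95ko libraries 2 were over 2-fold lower and 1 (Socs3) over 2-fold higher in CD95ko 2 (median 0.06). Jak2, a kinase of the receptor, had 23.4, 12.7, 40.9 and 72.4 (log2 difference 1.6 ± 0.47 SE, limma adjusted p = 0.191). Socs1, which encodes a feedback inhibitor of JAK kinases, had 18.1, 3.5, 8.45 and 0. The higher leukocyte marker sum in CD95ko 2 came from Cd68, at 44.6, 42.1, 17.8 and 146, while Csf1r had 1.22, 0, 22.2 and 5.07 and Ptprc was at 0. Their part in the members' values was not tested.

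The median profile of the members, each gene centred on its own mean over the 4 libraries, was 0.51 in control 1, -0.98 in control 2, -0.47 in CD95ko 1 and 0.80 in CD95ko 2 on the log2(TPM + 1) scale. Tap2 lay closest to it, at a root mean square distance of 0.064, and Psmb8 farthest, at 1.103. Of 9324 other genes compared over the 4 libraries, the median distance was 0.747 and the closest were Pnpla7 (0.076), Sorbs2 (0.093), Tmem106c (0.109), Azin2 (0.11), 5730559C18Rik (0.113) and Zbtb24 (0.12). Sorbs2, for example, had a TPM of 25.0 in control 1, 7.83 in control 2, 10.4 in CD95ko 1 and 27.2 in CD95ko 2. Of the tested genes, 2.55% or fewer lay closer to the profile than Tap2, Tapbp, Tap1, H2-K1, H2-T23 and H2-D1, which helped to define it, and 14.8% lay closer than Psmb9. B2m, Nlrc5 and Psmb8 lay farther from it than most genes, with 65.5%, 74.1% and 85.4% of tested genes closer.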

How the data were processed

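RNA of the 4 libraries of 4T1 was captured with oligo(dT), fragmented, poly(A)-tailed and copied with a protocol derived from SMART-seq2, per the labels' protocols. The authors deposited 1 table per library with a gene symbol and its TPM, a length-corrected value scaled to the same total in each library, and no counts. The submitters' processing notes name STAR 2.6.0, RSEM 1.3.0 and mm10. The annotation is not given in the sources used here, and reads that fit several class I genes or an antisense gene may have been split between them. The 11167 genes that reached a TPM of 1 in 2 or more of the 4 libraries were tested on log2(TPM + 1) with limma 3.58.1 in R 4.3.3 (variance trend, Benjamini-Hochberg adjustment over all tested genes, threshold 0.05). The fit was tested on simulated data. A fold change on that scale is smaller than the TPM ratio for low genes. Lists are described by counts of genes over 2-fold apart and by medians, and the shares and medians of all tested genes are given for the same contrasts. Groups came from the titles. The members, gene lists and printed contrasts were chosen with earlier results of these data known. The text names all members, Fas, Psmb5, Psmb6, Psmb7, Psmb10, up to 4 genes per list with the largest range of log2(TPM + 1) over the libraries, and the 6 other genes with a mean TPM of at least 5 closest to the members' median profile. H2-L, Hfe, Psme2, Socs3, Isg15, Zbp1 and H2-T-ps fall outside this rule and were named after their values were seen. Promoter windows and positions came from RefSeq (GRCm38.p6), and 25-base transcript stretches and exon overlaps from GENCODE M21. Protein sequences were not analysed here. The alternatives were a pseudocount of 0.1, no filter, no variance trend, robust moderation, quantile normalization, a block for the replicate number, and each library left out. A gene of the regulator and receptor pathway lists is not reported here.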

Additional observations from a re-analysis of the deposited data

How the results depend on the processing

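With 2 libraries a group and TPM without counts, a low level such as the 0.22 of Nlrc5 in CD95ko 1 carries an unknown counting error. The 6 genes called between CD95ko and control became 0 with quantile normalization, with no variance trend, with no filter on low values and with 0.1 as the pseudocount, and 52 with robust moderation. Leaving out a library gave 0 to 1034 calls, with the remaining library of that label assumed to vary like the other group. The member median of 0.13 ran from -0.49 to 1.09 with a library left out, and the 1 member without overlap became 3 to 8, while the share of all tested genes without overlap went from 47.6% to between 68.8% and 78.9%, since fewer libraries were compared. The log2 difference ran over the same omissions from -0.93 to 0.68 for H2-K1, -0.51 to 0.51 for H2-D1, -0.93 to 1.44 for Tap1, -0.23 to 1.14 for Tap2 and -2.15 to 2.13 for Psmb8, all of which changed sign. B2m stayed lower, from -1.24 to -0.61, and Nlrc5 from -2.51 to -0.09. H2-T23 (0.37 to 1.68), Tapbp (0.24 to 1.5) and Psmb9 (0.19 to 2.31) stayed higher. With all 4 libraries, no member changed direction or passed the threshold under any of these settings. The 9 members over 2-fold higher in CD95ko 2 than in CD95ko 1 were also 9 under the smaller pseudocount and quantile normalization, a check added after the data were seen. The 7 over 2-fold lower in control 2 were 8 and 6.

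The replicate numbers did not pair the libraries, since same-numbered libraries had a correlation of deviations of -0.081. With the replicate block 2 genes were called and the member median was 0.13.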

Other observations

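Of the 10 members, 8 lie together on chromosome 17, from 33919478 to 36032701 on GRCm38.p6, and the genes between them give the local background. Outside the gene lists and the H2 genes, 69 genes of this interval were tested. Between the controls their median log2 difference was -0.32, near the -0.35 of all tested genes, with 6 over 2-fold lower and 3 over 2-fold higher in control 2. Between the CD95ko libraries their median was 0.10, against 1.29 for the members, with 10 over 2-fold higher and 6 over 2-fold lower in CD95ko 2. Ddah2, an enzyme gene of methylarginine breakdown, had a TPM of 82.3 in control 1, 70.7 in control 2, 65.4 in CD95ko 1 and 378 in CD95ko 2. Fkbpl had 18.1, 6.21, 5.99 and 25.1, high and low in the same libraries as H2-K1. Both were named after their values had been seen.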
